A study of Camellia sinensis with 9 samples.

Results

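In the root, flower and leaf transcriptome of the tea plant, Camellia sinensis, 3724 of 61592 assembled loci (6.05%) were intergenic loci with several isoforms. A locus is a group of assembled transcripts that share 1 identifier and, here, 1 strand. Loci were taken when they held at least 2 transcripts, when every transcript carried the class code u, which marks a transcript that lies between annotated genes, and when at least 1 transcript had a strand. Measured values did not enter this choice. The loci held 10663 isoforms, 29.2% of the 36531 transcripts with that code, with 1861 loci on the plus strand and 1863 on the minus strand.

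Loci of this kind arise when an assembler joins spliced reads into transcripts where the reference annotation has no gene. They can hold long non-coding RNAs, precursors of small RNAs, transposable elements, or protein-coding genes and gene ends that the annotation lacks, and several isoforms usually reflect alternative splicing or alternative starts and ends. In plants, long non-coding RNAs are known for low levels and for expression in few tissues. The strand of an assembled transcript normally comes from its splice sites, so a stranded intergenic locus holds at least 1 transcript that the assembler read as spliced.

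The study sequenced RNA from root, flower and leaf, with 3 libraries for each tissue and 9 libraries in all. Plants received no treatment, total RNA was taken with TRIzol, and ribosomal RNA was depleted before sequencing, so RNA without a poly(A) tail can contribute. The sources used here name no cultivar, plant age or developmental stage. They also do not say whether the libraries of a tissue came from separate plants, so every p-value speaks of the spread among these libraries alone, and that spread may be technical. The libraries are root 13, 23 and 33, flower 1, 2 and 45, leaf 1 and 41, and an unnumbered leaf library whose column number matches no leaf title. Levels are the authors' FPKM (fragment numbers divided by transcript length and by library size), summed over the isoforms of a locus. Identifiers carry no gene names, 0 of them occurred in the RefSeq gene table of the species, and the labelled tissues could therefore not be checked against marker genes. Positions are given along the scaffold of each locus, which the table leaves unnamed, and their genome build is not given in the sources used here.

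Across all loci, the FPKM of a library summed to between 623826 (leaf 1) and 1250929 (flower 1). For a transcript of 1000 nt, 1 FPKM stood for 14 fragments in root 23 and for 26.0 in leaf 1, with the others between, so leaf libraries resolved low levels best; 3 fragments, the limit that a count of 0 allows, corresponded to 0.116 to 0.215 FPKM, counting error only. Some libraries stood apart. Over the tested intergenic loci with several isoforms, log2 levels of leaf 41 had a Pearson correlation of 0.67 and 0.68 with the other leaf libraries, which had 0.96 with each other, and leaf 41 correlated with the root libraries at 0.46 to 0.55, where the other leaf libraries had 0.30 to 0.32. Flower 2 had 0.78 and 0.79 with the other flower libraries, which had 0.95 with each other, and root 13 had 0.84 and 0.87 with the other root libraries, which had 0.94. These are correlations across 3254 loci within the same libraries and are given as a description. In leaf 41, 55 loci (1.69%) lay at least 8-fold above both other leaf libraries and 36 (1.11%) at least 8-fold below both. Over all tested loci these shares were 0.801% and 0.960%. Flower 2 had 12 loci above (0.369%) and 60 below (1.84%), against 0.303% and 0.977% of all tested loci. Root 13 had 17 above (0.522%) and 27 below (0.830%), against 0.322% and 0.404%. Each of the other libraries had at most 9 in either direction.

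Most of the loci held few isoforms over spans of moderate length. There were 2 isoforms at 2325 loci (62.4%), 3 at 721 (19.4%), 4 to 5 at 459 (12.3%), 6 to 9 at 177 (4.75%) and 10 or more at 42 (1.13%), with a mean of 2.86 and a highest number of 38. Spans, from the first to the last base of any isoform, ran from 293 to 321177 nt with a median of 4114 nt and quartiles of 2065 and 8428 nt. A span of 20000 nt or more was found at 398 loci (10.7%). Stranded intergenic loci with 1 transcript had a median span of 1544 nt, those without strand 464 nt, and annotated loci with several isoforms 7496 nt. Span rose with the number of isoforms, from a median of 3119 nt at loci with 2 to 17924 nt at loci with 10 or more.

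**Figure D1:**
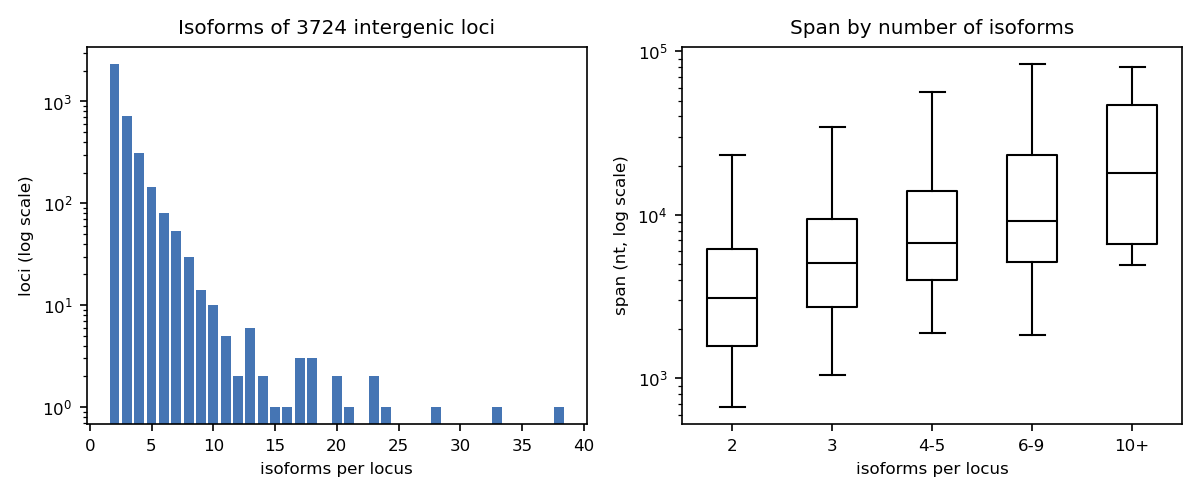
Left, number of intergenic loci (log scale) by isoforms per locus; right, span in nt (log scale) for 5 classes of isoform number, with boxes from the lower to the upper quartile, the median as a line and whiskers from the 5th to the 95th percentile. Loci with 2 isoforms made up 62.4% of the 3724 loci, and the median span was 3119 nt in that class and 17924 nt in the class with 10 or more.

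Only the outer ends of the isoforms could be compared, since the table gives no exon positions. Among the 2325 loci with 2 isoforms, 407 (17.5%) had both ends in common, so that the isoforms differ only inside the locus. Only the 5′ end was shared at 438 loci (18.8%), only the 3′ end at 368 (15.8%) and neither at 1112 (47.8%), and the isoforms overlapped at every one of them (0 without overlap). At the 5772 annotated loci with 2 transcripts, both ends were shared at 7.19% and neither at 67.7%. Where ends differed they were often close, with a median distance of 93 nt for 5′ ends and 130 nt for 3′ ends. A distance under 50 nt accounted for 593 of 1480 different 5′ ends and 534 of 1550 different 3′ ends. Each end was counted on its own, and whether such isoforms also differ inside the locus is not known.

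Many of the loci lay opposite another locus. Loci with consecutive numbers were taken as neighbours on a scaffold, and 911 of the intergenic loci with several isoforms (24.5%) overlapped a locus of the next lower or higher number on the opposite strand. That neighbour was another intergenic locus with several isoforms at 286, an intergenic locus with 1 transcript at 532 and an annotated locus at 109, and some loci had a neighbour of more than 1 kind. The share rose from 21.5% at loci with 2 isoforms to 54.8% at loci with 10 or more. Whether the authors' counting used strand is not given in the sources used here, so reads of such opposite pairs may not be told apart, and the same holds for near-identical copies of a locus elsewhere.

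Levels were low at most of the loci and high at a few. The requirement for the tests, a summed level of 1 FPKM or more in 3 or more libraries, was met by 3254 loci (87.4%), against 59.0% of all loci, 54.7% of stranded intergenic loci with 1 transcript and 94.5% of annotated loci with several isoforms. The other 470 were left out of the tests, and 3 of them were listed at 0 in every library. Over the tested loci the mean of the 9 libraries had a median of 3.91 FPKM with quartiles of 1.96 and 9.98, between 2.26 for stranded intergenic loci with 1 transcript and 10.9 for annotated loci with several isoforms. A mean of at least 10 FPKM was reached at 811 (24.9%) and of at least 100 at 68 (2.09%). The median rose with the number of isoforms, from 2.95 FPKM at loci with 2 to 16.9 at loci with 10 or more. The part of level in the number of assembled isoforms was not tested.

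The intergenic loci with several isoforms held 6.87%, 5.85% and 6.4% of all FPKM in root 13, 23 and 33. In flower 1, 2 and 45 they held 5.98%, 5.25% and 5.45%, and in leaf 1, the unnumbered leaf library and leaf 41 they held 4.59%, 4.15% and 4.61%. All root and flower libraries lay above all leaf libraries, while root and flower overlapped. Root had a mean of 6.37% ± 0.514, flower of 5.56% ± 0.378 and leaf of 4.45% ± 0.260 (SD over 3 libraries each). The differences from leaf had a two-sided exact permutation p of 0.10, the smallest that 3 libraries against 3 allow, and the difference between flower and root had an exact permutation p of 0.20; adjusted over the 9 contrasts of this kind these were 0.18 and 0.257. Without the 3 loci of highest mean the shares were 6.03%, 5.01% and 4.44%. The number of loci at 1 FPKM or more went the other way, with 2366, 2373 and 2378 in root, 2391, 2170 and 2460 in flower, and 2681, 2610 and 2601 in leaf, each leaf library above all others. Both differences from leaf again had an exact permutation p of 0.10, and 1 FPKM stood for more fragments in leaf libraries than in any other. Over all loci of the table, each leaf library again lay above all others. The numbers at 1 FPKM or more were 28636, 27737 and 28461 in root, 28451, 28878 and 29213 in flower, and 30270, 29235 and 29859 in leaf. The part of depth in these counts was not tested.

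Root and leaf were compared with limma, a linear model that shares information on the spread across all loci, on log2(FPKM + 1) over all 36342 tested loci. Calls required an adjusted p (Benjamini-Hochberg) below 0.05 together with a difference of 1 or more on that scale, on which the change of low loci comes out too small. Of the 3254 intergenic loci with several isoforms, 554 (17.0%) were called higher in root and 466 (14.3%) lower, against 19.8% and 15.5% of all tested loci. A difference of at least 3 on the log2 scale, 8-fold, was reached at 182 loci (5.59%) upward and 105 (3.23%) downward, where all loci gave 4.57% and 3.58%. The libraries of both tissues did not overlap at 50.1% of them, against 54.1% of all loci. The median difference was -0.09 for these loci and 0.00 over all. Calls were thus near the background in both directions. In bulk tissue, fewer cells of a type and less RNA per cell cannot be told apart.

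The largest difference toward root was at MSTRG.18954, on the plus strand at 38672 to 83105 of its scaffold, with 5 isoforms over 44434 nt. Its level was 3217, 3191 and 3251 FPKM in root 13, 23 and 33, then 2.60, 3.13 and 0.958 in flower 1, 2 and 45, and 0.400, 0.290 and 0.546 in leaf 1, the unnumbered leaf library and leaf 41. The root libraries agreed closely and lay more than 1000 FPKM above every other library, with a difference from leaf of 11.16 ± 0.29 (SE) on the log2(FPKM + 1) scale (limma adjusted p = 1.50e-07). MSTRG.6896, on the minus strand at 338305 to 340849 with 2 isoforms, had 705, 758 and 556 FPKM in root and at most 1.10 in flower, was listed at 0 in leaf 1 and the unnumbered leaf library, and had 0.0718 in leaf 41, which is under the limit of 3 fragments at 1000 nt. It rose in root by 9.35 ± 0.25 over leaf (limma adjusted p = 1.50e-07), a value that depends on the pseudocount since leaf lies at the detection limit.

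Toward leaf, the largest difference was at MSTRG.11783, on the minus strand at 329934 to 356115 with 2 isoforms over 26182 nt. It had 239, 397 and 180 FPKM in the leaf libraries, 2.41, 0.12 and 0.690 in flower, and 0, 0.206 and 1.34 in root. Leaf lay far above both other tissues, which overlapped each other, and the locus was lower in root by -7.52 ± 0.49 (limma adjusted p = 9.45e-06). MSTRG.36111, on the minus strand at 199859 to 206087 with 3 isoforms, had 85.2, 140 and 181 FPKM in leaf, 6.78, 6.16 and 6.67 in flower and 0.124, 0.0526 and 0.133 in root. Here the 3 tissues formed separate steps, with root lowest at levels near the limit of 3 fragments, flower between and leaf highest. The difference of root from leaf was -6.89 ± 0.29 (limma adjusted p = 1.13e-06), that of flower from leaf was -4.11 ± 0.29 (1.39e-05), and that of flower from root was 2.77 ± 0.29 (6.51e-05).

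Flower and leaf gave fewer calls toward flower among the intergenic loci with several isoforms than among all loci. Of the 3254 loci, 448 (13.8%) were called higher in flower and 574 (17.6%) lower, against 20.3% and 17.3% of all tested loci. At 8-fold the counts were 125 (3.84%) and 61 (1.87%), against 5.95% and 2.38%. The libraries did not overlap at 45.7%, against 51.5%, and the median difference was -0.17, against -0.02 over all loci. The share called higher in flower was 16.4% for stranded intergenic loci with 1 transcript, 15.9% for those without strand and 21.8% for annotated loci with several isoforms. All sets passed the same filter, and the difference between sets was not tested.

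MSTRG.11623, on the plus strand at 793713 to 794852 with 2 isoforms, had 3995, 796 and 1869 FPKM in flower, 1.76, 0.444 and 3.73 in root, and 0.240, 0.358 and 2.49 in leaf. Every flower library had at least 796 FPKM and no other library more than 3.73, and the difference from leaf was 9.97 ± 0.66 (limma adjusted p = 1.13e-05). Its isoforms were not used alike, since the leading isoform held 71.7% and 71.5% of the locus in flower 1 and flower 45 and a vanishing share in flower 2, where the longer isoform held all of it. With the leading isoform alone the difference was 6.57 and was no longer called (limma adjusted p = 0.0632). MSTRG.15498, on the plus strand at 399367 to 404045 with 2 isoforms, had 1112, 553 and 467 FPKM in flower, was listed at 0 in all root libraries and in the unnumbered leaf library and leaf 41, and had 0.890 in leaf 1. It was higher in flower than in leaf by 9.06 ± 0.38 (limma adjusted p = 1.54e-06).

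In the other direction, MSTRG.11783 was again the locus with the largest difference, -7.12 ± 0.49 (limma adjusted p = 1.37e-05). MSTRG.53184, on the plus strand at 26775 to 30566 with 2 isoforms, had 109, 132 and 83.2 FPKM in leaf, and at most 0.0687 in the flower and root libraries, 3 of which were listed at 0. All flower and root values lay under the limit of 3 fragments. The locus was lower in flower than in leaf by -6.69 ± 0.26 (limma adjusted p = 1.03e-06).

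Flower and root differed at more loci than either did from leaf, as over the whole table. Of the 3254 intergenic loci with several isoforms, 544 (16.7%) were called higher in flower and 752 (23.1%) higher in root, against 21.8% and 22.5% of all tested loci. At 8-fold the counts were 150 (4.61%) toward flower and 196 (6.02%) toward root, against 6.51% and 4.71%. Libraries of both tissues did not overlap at 54.8%, against 60.6%, and the median difference was -0.11, against -0.01. The 3 comparisons share libraries and are not independent of each other.

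MSTRG.78, on the minus strand at 113089 to 160053 with 2 isoforms over 46965 nt, had 4126, 3378 and 1247 FPKM in flower, 29.2, 31.3 and 7.89 in leaf, and 0.384, 0.662 and 2.30 in root. The 3 tissues did not overlap, and the difference of flower from root was 10.37 ± 0.62 (limma adjusted p = 3.56e-06). MSTRG.18955, on the minus strand at 44115 to 47023, followed nearly the same order with 2753, 2397 and 838 FPKM in flower, 28.1, 31.0 and 5.86 in leaf and 0.173, 0.563 and 1.78 in root, and differed between flower and root by 10.01 ± 0.67 (limma adjusted p = 6.30e-06). It lies inside the span of MSTRG.18954 on the opposite strand. The pair was therefore split by tissue, with the plus-strand locus at 3191 FPKM or more in root and 3.13 or less in flower, and the minus-strand locus at 838 FPKM or more in flower and 1.78 or less in root.

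Toward root, MSTRG.18954 differed from flower by -10.03 ± 0.29 (limma adjusted p = 2.19e-07). MSTRG.17134, on the minus strand at 399957 to 401406 with 2 isoforms, had 732, 850 and 1177 FPKM in root, 0.249, 0.104 and 0.243 in flower, and 0.134, 0.228 and 3.09 in leaf, with leaf 41 above the other leaf libraries. Its difference of flower from root was -9.56 ± 0.46 (limma adjusted p = 1.26e-06).

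The balance of directions depended on how the libraries were scaled and on how low levels were treated. With the deposited scaling, 54.3%, 43.8% and 42.0% of the calls at intergenic loci with several isoforms were higher in the first tissue for root against leaf, flower against leaf and flower against root. Over all tested loci these shares were 56.2%, 53.9% and 49.2%. With every library scaled to an equal sum of FPKM, the shares at intergenic loci with several isoforms were 39.4%, 26.6% and 38.6%. The share over all loci under that scaling is not given here. The median difference of all tested loci moved to -0.30, -0.39 and -0.07, with -0.40, -0.54 and -0.17 for intergenic loci with several isoforms. The root-leaf balance thus turned toward leaf, and the median of these loci lay below that of all loci in all 3 comparisons under both scalings. With leaf 41 and flower 2 left out, a choice made after seeing the data, 1404, 1156 and 1546 loci were called in place of 1020, 1022 and 1296. Over all tested loci, 16169, 14886 and 17999 were then called in place of 12828, 13676 and 16123. A pseudocount of 5 in place of 1 lowered the counts to 598, 495 and 739, and those over all tested loci to 7429, 8204 and 9907. The shares of calls higher in the first tissue were then 62.4%, 58.8% and 42.9%. They were 62.6%, 52.6% and 41.1% with a filter of 5 FPKM. The flower-leaf balance thus turned toward flower under both settings. The matching shares over all loci are not given here.

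**Figure D2:**
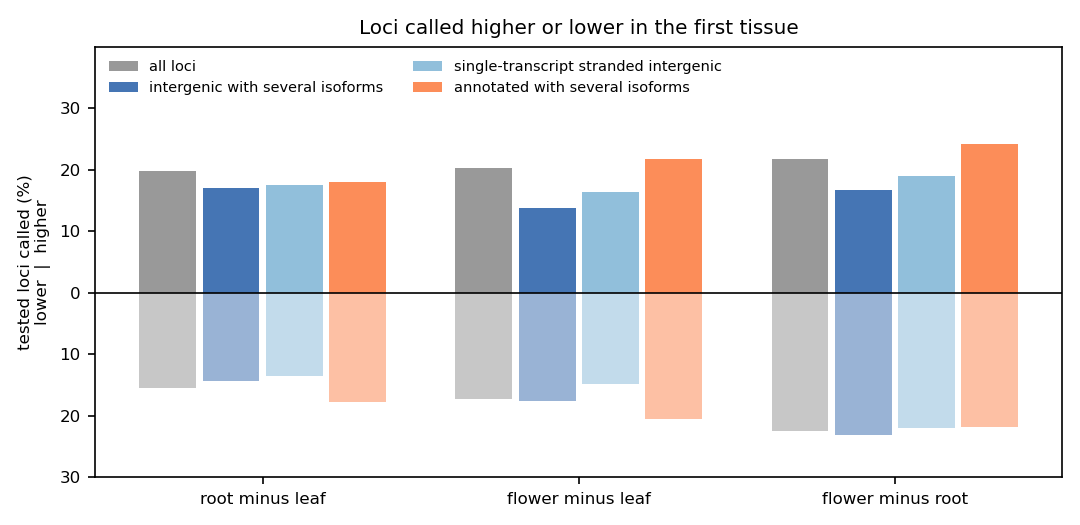
Percent of tested loci called higher (above 0) or lower (below 0) in the first tissue of each comparison, for all 36342 loci, intergenic loci with several isoforms, stranded intergenic loci with 1 transcript and annotated loci with several isoforms. Intergenic loci with several isoforms were called higher in flower than in leaf at 13.8%, against 20.3% of all loci, while the root-leaf bars lie closer together.

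A locus was counted as enriched in a tissue when it was called higher there than in both other tissues. Root enrichment was found at 411 of the 3254 intergenic loci with several isoforms (12.6%), flower enrichment at 314 (9.65%) and leaf enrichment at 247 (7.59%), against 13.5%, 14.2% and 8.21% of all tested loci. In all, 972 (29.9%) were enriched in 1 tissue, against 35.8%, and 1365 (41.9%) were called in no comparison, against 35.9%. Flower enrichment stood at 12.7% of stranded intergenic loci with 1 transcript, 11.6% of those without strand and 14.7% of annotated loci with several isoforms, so 9.65% was the lowest of these sets, a difference that was not tested. The order of the tissues depended on the scaling, since with equal sums 365 were enriched in root, 252 in flower and 401 in leaf. Equal sums moved the median difference of all tested loci toward leaf too, to -0.30 for root and -0.39 for flower. The share of all loci enriched under equal sums is not given here.

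The enriched loci were chosen by a higher level in their own tissue, so the medians below describe size only. The median level of root-enriched loci was 18.0 FPKM in root, against 1.11 for flower and 1.30 for leaf. Flower-enriched loci had a median of 17.3 FPKM in their own tissue, against 0.804 for root and 0.965 for leaf. Leaf-enriched loci had 7.90 FPKM in their own tissue, against 0.493 for root and 0.750 for flower. Over all enriched loci of the table the medians in the own tissue were 16.3 FPKM for root, 26.0 for flower and 13.5 for leaf. Among the enriched intergenic loci with several isoforms, a mean of 100 FPKM or more in their own tissue was reached by 55 in root, 44 in flower and 8 in leaf. At least 8-fold above both other tissues lay 135, 97 and 45. The matching counts over all enriched loci are not given here. The summed level of the 411 root-enriched loci was 27156, 37304 and 27836 FPKM in the root libraries, and 3656 in leaf 41 against 1396 and 1551 in the other leaf libraries. Leaf 41 was thus the highest of the 6 other libraries for the root-enriched loci. For the leaf-enriched loci it was the lowest leaf library, with 3614 FPKM against 5211 and 5853. Whether RNA of other tissue contributed to that library was not tested, since no marker genes could be named.

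Root enrichment varied with span. It was found at 15.0% of tested loci under 2000 nt, 12% from 2000 to 5000 nt, 9.81% from 5000 to 20000 nt and 18.1% at 20000 nt or more. Flower enrichment fell from 11.5% to 7.63% over the same classes, and leaf enrichment lay between 6.75% and 8.50%. With isoform number, flower enrichment went from 10.5% at loci with 2 isoforms to 7.32% at the 41 tested loci with 10 or more, root enrichment lay between 9.88% and 14.8%, and none of these trends was tested. All of these are shares of intergenic loci with several isoforms. The shares over all tested loci in the same classes are not given here.

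Tissue specificity was also described by the tau index on log2(FPKM + 1), which is 0 when the 3 tissue means are equal and 1 when only 1 tissue has a level. Its median was 0.42 for intergenic loci with several isoforms, the same as over all tested loci, with 0.51 for stranded intergenic loci with 1 transcript, 0.58 for those without strand and 0.30 for annotated loci with several isoforms. A tau of at least 0.8 was found at 421 loci (12.9%), of which 167 were highest in root, 148 in flower and 106 in leaf, and a tau under 0.2 at 599 (18.4%), near the 14% and 19.6% of all tested loci. The median of tau was 0.46 at loci with 2 isoforms, 0.40 with 3, 0.36 with 4 to 5, 0.30 with 6 to 9 and 0.33 with 10 or more. By level the median changed little, with 0.44 at a highest tissue mean under 5 FPKM, 0.40 from 5 to 20 and 0.42 at 20 or more, while both tails were larger at higher levels. A tau under 0.2 was found at 14.5%, 20.1% and 22.4% of the loci in these classes. At the other end, 7.54% of loci with a highest tissue mean under 5 FPKM, 14.4% of those from 5 to 20 and 19.9% of those at 20 or more had a tau of at least 0.8. The upper tail also grew for intergenic loci with 1 transcript, from 14.7% under 5 FPKM to 24.6% at 20 or more for those with strand and from 21.8% to 28.9% for those without, while it went from 8.20% to 5.87% for annotated loci with several isoforms.

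**Figure D3:**
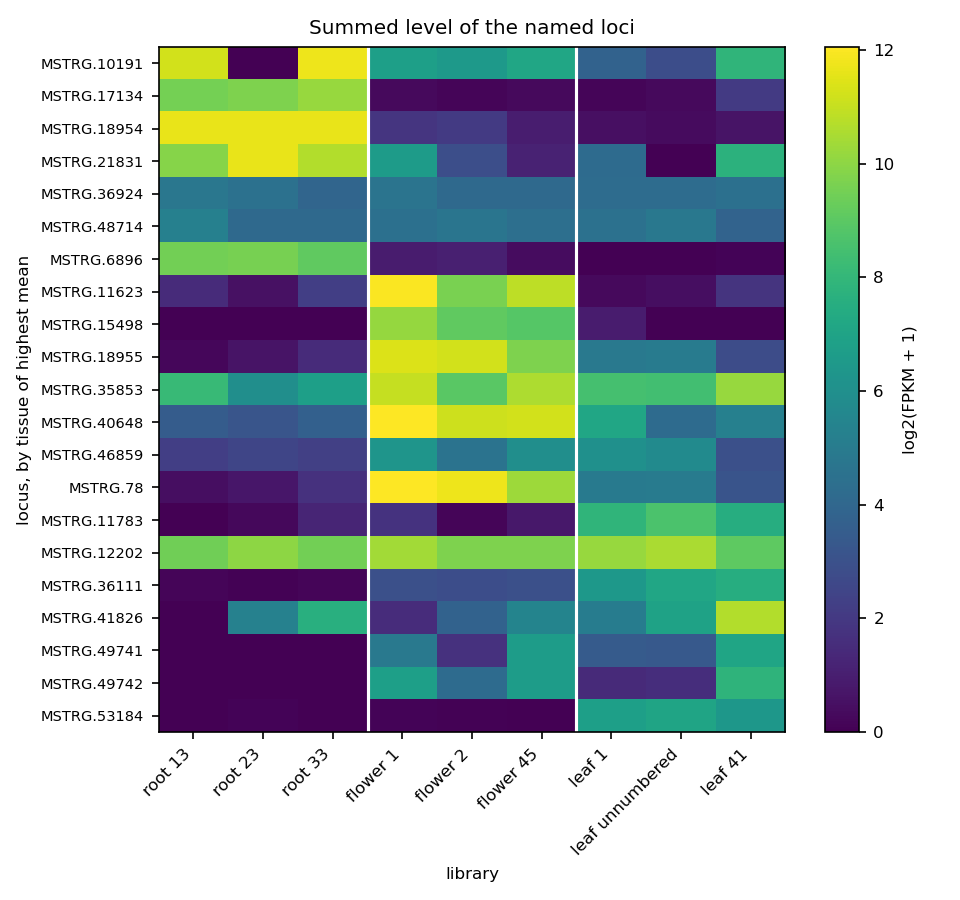
Summed level on the log2(FPKM + 1) colour scale of the named loci (rows, grouped by the tissue of highest mean) in the 9 libraries (columns, white lines between tissues). MSTRG.18954 is bright in the 3 root libraries only, MSTRG.78 and MSTRG.18955 in the flower libraries, and MSTRG.12202 in all 9.

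The loci of highest mean were not all tissue-enriched. In root, MSTRG.18954 was followed by MSTRG.10191, on the minus strand at 235352 to 308701 with 8 isoforms over 73350 nt, which had 2431 and 3404 FPKM in root 13 and root 33 and was listed at 0 in root 23. It had 112, 91.2 and 137 in flower and 12.8, 6.11 and 236 in leaf, with leaf 41 highest of the leaf libraries. With the value of 0 the difference of root from leaf was 2.82 ± 2.75 (limma adjusted p = 0.452); with root 23 set as missing for this locus, an alternative chosen after seeing the data, it was 6.65 (limma adjusted p = 0.00366). MSTRG.21831, on the minus strand at 365175 to 403145 with 2 isoforms over 37971 nt, had 922, 3219 and 1626 FPKM in root, 96.7, 6.54 and 1.26 in flower, and 17.4, 0 and 210 in leaf. Root lay above all other libraries, which spread widely, and the difference from leaf was 6.75 ± 1.87 (limma adjusted p = 0.0181).

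In flower the highest mean was at MSTRG.40648, on the minus strand at 60977 to 65614 with 3 isoforms, with 4239, 2245 and 2426 FPKM in flower, 141, 17.6 and 36.5 in leaf, and 10.4, 8.15 and 12 in root. The 3 tissues did not overlap, and flower lay above root by 8.01 ± 0.64 (limma adjusted p = 1.56e-05) and above leaf by 5.94 ± 0.64 (limma adjusted p = 1.14e-04). It was followed by MSTRG.78 and MSTRG.11623, described above.

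The loci of highest mean in leaf were not leaf-enriched. MSTRG.12202, on the minus strand at 731358 to 732752, had 1159, 1473 and 532 FPKM in leaf, 1320, 840 and 835 in flower and 696, 1015 and 710 in root. The tissues overlapped, no comparison was called, and its 3 isoforms have the same start and end. MSTRG.35853, on the plus strand at 60841 to 63928 with 3 isoforms, had 357, 337 and 1184 FPKM in leaf, 2003, 500 and 1500 in flower and 279, 61.2 and 109 in root, and was called only between flower and root, at 3.21 ± 0.74 (limma adjusted p = 0.00597). MSTRG.41826, on the minus strand at 67795 to 69531, ranked here through leaf 41, with 32.6, 124 and 1636 FPKM in leaf, 1.91, 12.7 and 42.2 in flower, and a vanishing estimate, 38.5 and 193 in root, and no comparison was called.

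Some of the longest loci, and MSTRG.49741 and MSTRG.49742 with 28 and 38 isoforms, stood in runs of neighbours that were all listed at exactly 0 in a library. A run is here a set of overlapping loci with consecutive numbers, all at 0 in 1 library while their sum reached at least 10 FPKM in both other libraries of the tissue, or all at 0 in all 3 libraries of a tissue and at least 10 FPKM in at least 3 others. There were 21 runs with at least 1 intergenic locus with several isoforms, holding 53 of these loci. Root 23 alone had 5 runs with 24 loci, of which 14 were intergenic with several isoforms, and 12 runs of 70 loci, 30 of them intergenic with several isoforms, were at 0 in all 3 root libraries. The median span was 40254 nt for those in the runs of root 23 and 76198 nt for those in the runs of all root libraries, against 4114 nt overall. An exact 0 across a run may be a failed estimate rather than an absence of RNA, and the files do not tell these apart. With the runs set as missing, the counts of called loci were 1025, 1023 and 1293.

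In root 23, MSTRG.10191 was at 0 with its neighbours MSTRG.10192 to MSTRG.10196, and MSTRG.30677 was at 0 where root 13 and root 33 had 3318 and 2304 FPKM. That locus had 264, 20.9 and 172 FPKM in flower and 24.2, 27.5 and 454 in leaf. The level of MSTRG.10195, at 987 and 206 FPKM in root 13 and root 33 and listed at 0 in root 23, was the highest in any library among the loci left out of the tests, whose highest value had a median of 2.70 FPKM. Outside the runs, loci at 0 in 1 library and at 10 FPKM or more in both other libraries of the tissue were also unevenly spread. There were 13 such intergenic loci with several isoforms in flower 2, 9 in root 13, 7 in leaf 41, 1 in the unnumbered leaf library and 0 in the other libraries; in root 23 all 12 loci of this kind lay in the runs.

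**Figure D4:**
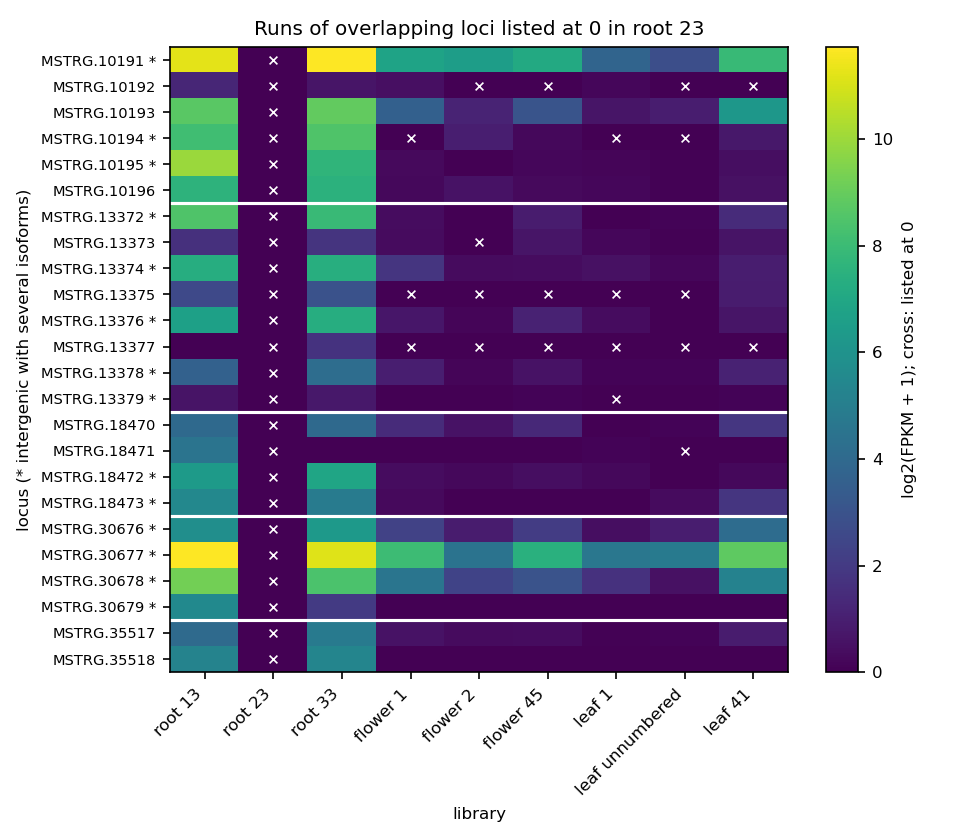
Summed level on the log2(FPKM + 1) colour scale of the 24 loci (rows, white lines between runs) that formed the 5 runs listed at 0 in root 23, in all 9 libraries; a cross marks a listed 0 and an asterisk an intergenic locus with several isoforms. Root 13 and root 33 have levels at nearly all of these loci, up to 3404 FPKM at MSTRG.10191, where every root 23 cell is crossed.

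The loci with the most isoforms were MSTRG.49742, with 38 on the minus strand at 625445 to 732103, MSTRG.46859, with 33 on the plus strand at 24217 to 74087, and MSTRG.49741, with 28 on the plus strand at 624246 to 732103. MSTRG.49741 and MSTRG.49742 lie opposite each other, and both were listed at 0 in all root libraries. MSTRG.49742 had 110, 17.7 and 99.8 FPKM in flower and 1.70, 2.0 and 229 in leaf, and MSTRG.49741 had 28.0, 2.32 and 101 in flower and 10.1, 9.23 and 135 in leaf. At both loci flower 2 was the lowest flower library and leaf 41 the highest of all libraries. MSTRG.46859 had 77.6, 22.7 and 61.8 FPKM in flower, 65.2, 52.6 and 6.67 in leaf, and 3.73, 4.67 and 3.87 in root, so root lay below every other library, and flower was above root by 3.27 ± 0.77 (limma adjusted p = 0.00645).

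The longest tested loci were MSTRG.49648, with 5 isoforms over 321177 nt on the minus strand at 11027 to 332203, and MSTRG.49651, with 3 isoforms over 312901 nt on the minus strand at 108886 to 421786. Both belong to 1 run at 0 in all root libraries. MSTRG.49648 had 1.97, 1.73 and 16.9 FPKM in flower and 0.0699, 0.269 and 1.98 in leaf, and MSTRG.49651 had 0.934, 0.977 and 2.5 in flower and 1.13, 0.0823 and 2.05 in leaf. These are low levels over very long spans, and flower and leaf overlapped at both loci.

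Where an enriched locus had a tested neighbour on the opposite strand, the neighbour could be enriched in the same tissue, in another or in none. It was enriched in the same tissue for 74 of 112 root-enriched loci (66.1%), 43 of 68 flower-enriched loci (63.2%) and 17 of 35 leaf-enriched loci (48.6%), while 4, 8 and 3 neighbours were enriched in another tissue. Over all enriched loci of the table with such a neighbour the shares in the same tissue were 47.9%, 54.5% and 36.9%, and the difference from these was not tested. A pair of enriched loci that were both intergenic with several isoforms can count from each side. MSTRG.18954 and MSTRG.18955 were enriched in different tissues, root and flower. Reads assigned across strands cannot be told apart from opposite transcription in these files.

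Isoform use was described by the leading isoform, the isoform with the highest mean of the 3 tissue means, and by the isoform that was highest in each library. In root the highest isoform held a median of 76.4% ± 0.20 of the summed FPKM, with 75.8% ± 2.35 for flower and 71.8% ± 1.14 for leaf (SD over 3 libraries each), and it held at least 90% at 31.2% ± 0.458, 30% ± 3.82 and 24.0% ± 1.74 of the loci. At annotated loci with several isoforms the medians were 73.3%, 74.3% and 72.8%. Isoforms with at least 10% of the locus numbered 1.86 in root, 1.89 in flower and 1.98 in leaf per locus, and the difference of root from leaf had an exact permutation p of 0.10, which is the smallest possible. The highest isoform often changed between libraries. Of the 1071 loci with at least 1 FPKM in all 9 libraries, 433 (40.4%) had the same highest isoform throughout, against 54.5% of annotated loci with several isoforms, and 182 (17.0%) had at least 3 different ones. Within root, flower and leaf the same isoform was highest in all 3 libraries at 68.3%, 59.2% and 62.3% of the loci, against 74.5%, 74.0% and 76.3% at annotated loci, which had higher levels; the difference between these sets was not tested.

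A switch was counted where 1 isoform was highest in all 3 libraries of a tissue and another in all 3 of the other, among loci with at least 1 FPKM in those 6 libraries. Between root and leaf 53 of 1484 loci (3.57%) switched, between flower and leaf 18 of 1273 (1.41%) and between flower and root 53 of 1187 (4.47%). Over all loci with at least 2 transcripts the shares were 3.08%, 1.61% and 4.26%, close to these. The counts moved with single libraries. A switch is easier to reach over fewer libraries, but the counts also depended on which library was left out, and the cause of that was not tested. Without leaf 41 there were 151 between root and leaf, without root 13 there were 105 and without the unnumbered leaf library 82. Between flower and leaf, leaving out any 1 library gave 32 to 54, the most without flower 2. Between flower and root there were 151 without flower 2, 89 without root 13, 84 without flower 1 and 82 without flower 45. When the highest isoform had to exceed the next by 1.5 times in every library, there were 15, 5 and 12 switches, and with at least 5 FPKM there were 18, 7 and 21. A limit of 5 FPKM leaves fewer loci to consider, and their number is not given here. Shares over all loci under these rules and with a library left out are not given either.

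The share of the leading isoform was tested with limma over the 10487 loci of the table with at least 2 transcripts and at least 1 FPKM in all libraries, and called at an adjusted p under 0.05 and a difference of at least 20 percentage points. Of the 1071 intergenic loci with several isoforms that met this, 56 (5.23%) were called between root and leaf, 13 (1.21%) between flower and leaf and 96 (8.96%) between flower and root, against 4.29%, 1.31% and 8.70% of all such loci. Their median absolute differences were 10.8, 7.82 and 13.1 points, against 7.34, 5.54 and 9.03 over all. Of the calls between root and leaf, 36 were higher in root and 20 in leaf, against 192 (1.83%) and 258 (2.46%) of all loci. Of those between flower and root, 37 were higher in flower and 59 in root, against 506 (4.83%) and 406 (3.87%). Between flower and leaf 6 were higher in flower and 7 in leaf, against 82 (0.782%) and 55 (0.524%). The leading isoform was chosen by its FPKM in these same libraries, so a tissue with a higher level weighs more in that choice. The direction of a share difference is therefore partly set by the choice. The split by direction was not tested and is given as a description. The root-leaf count was 88 without leaf 41, 31 without leaf 1 or without the unnumbered leaf library, and 34 without root 23 or without root 33, the flower-leaf count was 8 without the unnumbered leaf library, and the flower-root count was 57 without flower 1 or root 23 and 62 without root 33.

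The largest share difference between root and leaf was at MSTRG.25798, on the minus strand at 323637 to 327740, with a long isoform over the whole span of 4104 nt and a short one of 966 nt at its 5′ end, from 326775 to 327740. The short isoform held 95.2%, 93.6% and 97.3% in root, 68.6%, 88.4% and 65.4% in flower and 15.0%, 0% and a vanishing share in leaf. Its share was higher in root than in leaf by 90.4 ± 6.82 points (limma adjusted p = 9.63e-04) and in flower than in leaf by 69.2 ± 6.82 points (limma adjusted p = 0.00466). The level fell alongside, from 665, 217 and 304 FPKM in root to 2.1, 11.6 and 1.32 in flower and 2.66, 1.57 and 3.13 in leaf, so the leaf shares rest on few fragments. MSTRG.48632, at 522 to 1387 on the minus strand, has a pair of isoforms with the same ends and turned the other way. Isoform 1 held 0.670% in root 13 and under that in the other root libraries, 80.2%, 100% and 85.9% in flower and 92.8%, 79.6% and 87.4% in leaf, a difference of root from leaf of -86.4 ± 5.45 points (limma adjusted p = 4.79e-04). Its level was lower in root too, at 1.70, 7.46 and 5.51 FPKM, against 63.5, 48.7 and 47.1 in leaf.

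Some loci changed isoform with little change of level. MSTRG.10171, on the minus strand at 339159 to 346542 with 6 isoforms, had 111, 132 and 129 FPKM in root, 251, 179 and 182 in flower and 143, 231 and 224 in leaf, with no level call. Isoform 5, at 339482 to 342248, held 54.7%, 71.1% and 75.8% in root and 77.6%, 85.9% and 93.5% in leaf, and 5.69%, 21.6% and 6.29% in flower. Isoform 6, at 341487 to 346542 and so nearer the 5′ end, held 91.1%, 76.3% and 91.8% in flower, and at most 24.9% elsewhere. The share of isoform 5 in flower differed from leaf by -74.5 ± 7.28 points (limma adjusted p = 0.00456) and from root by -56.0 ± 7.28 (limma adjusted p = 0.00569), and this locus was the most abundant switch between flower and leaf.

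MSTRG.31488, on the minus strand at 272576 to 275408, showed the same order at a lower level, with no level call. Isoform 1 held 85.1%, 79.2% and 78.7% in root, 85.1%, 80.0% and 88.5% in leaf, and 23.9%, 41.8% and 36.0% in flower, where isoform 2, whose 3′ end lies at 272612 within the locus, held the rest. The difference of flower from leaf was -50.6 ± 4.80 points (limma adjusted p = 0.00435) and of flower from root -47.1 ± 4.80 (limma adjusted p = 0.00230). At MSTRG.29667, on the plus strand at 121263 to 127062 with 7 isoforms, isoform 1 held 88.8%, 91.9% and 88.4% in root, at most 16.4% in flower and at most 23.4% in leaf, again with no level call. The share was lower in flower than in root by -77.6 ± 4.57 points (limma adjusted p = 2.70e-04).

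MSTRG.40064, on the plus strand at 69337 to 72297, set leaf apart. Its isoform over the whole span held 91.2%, 100% and 82.6% in root, 86.3%, 88.4% and 87.2% in flower and 6.84%, 21.9% and 20.2% in leaf, where the shorter isoform from 71075 to 72286 was highest. Root differed from leaf by 75 ± 5.38 points (limma adjusted p = 8.12e-04) and flower from leaf by 71.0 ± 5.38 (limma adjusted p = 0.00138). The levels behind these shares were 1.32, 1.48 and 2.16 FPKM in root, 11.0, 8.60 and 7.32 in flower and 6.66, 4.55 and 14.6 in leaf.

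The remaining named share differences were less stable or moved with the level. At MSTRG.51165 the leading isoform held under 0.01% in root, 86.3%, 40.4% and 87.4% in flower and 78.7%, 70.4% and 86.1% in leaf, and differed between root and leaf by -78.4 ± 12.4 points (limma adjusted p = 0.0171), a call that was lost without leaf 1, the unnumbered leaf library, root 23 or root 33. At MSTRG.4094 the difference of root from leaf was 82.9 ± 15.7 points (limma adjusted p = 0.0314) and the call was lost without any single root or leaf library and without flower 45. At MSTRG.32547 flower was lower than root by -81.6 ± 14.2 points (limma adjusted p = 0.0154), with root 23 at 44.7% against 100% in the other root libraries, and the call was lost without flower 1 and when leaf 41 and flower 2 were both left out. At MSTRG.46859, the locus with 33 isoforms, isoform 28 held 60.3%, 84.6% and 96.1% in root and 22.8%, 25.7% and 22.8% in flower, a difference of -56.6 ± 9.77 points (limma adjusted p = 0.0150).

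The most abundant switch between root and leaf was at MSTRG.5436, on the plus strand at 976845 to 997297 with 3 isoforms. Its level was 452, 673 and 399 FPKM in root, 36.0, 9.41 and 57.1 in flower and 2.40, 3.06 and 48.2 in leaf. The isoform of 20191 nt held 62.5%, 69.8% and 64.1% in root, was listed at 0 in all leaf libraries and in flower 1 and flower 2, and held 36.0% in flower 45. A shorter isoform of 3527 nt with the same start, 977106, held at least 99.8% in leaf. MSTRG.26363, on the plus strand at 119053 to 126503, switched between flower and leaf, where isoform 1 held 75.5%, 83.4% and 68.9% in flower and 39.7%, 36.3% and 32.7% in leaf. Its level was 106, 99.8 and 71.0 FPKM in flower, 18.6, 20 and 9.0 in leaf and at most 0.136 in root, too low there for the test of shares.

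**Figure D5:**
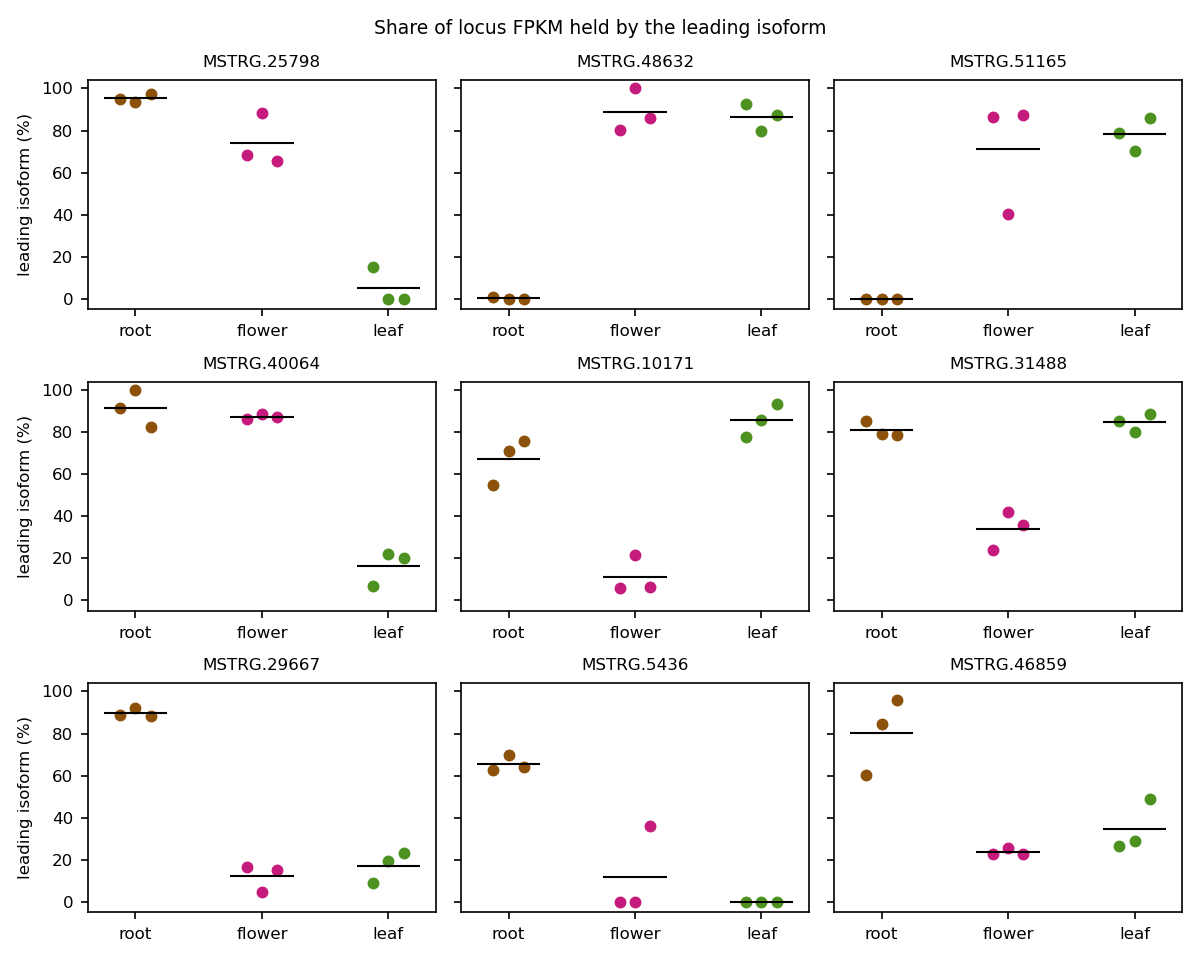
Percent of the summed FPKM of a locus held by its leading isoform at 9 named loci; each point is a library and each line the mean of 3 libraries of a tissue. At MSTRG.10171 and MSTRG.31488 the flower points lie below all others, at MSTRG.25798 and MSTRG.40064 the leaf points do, and at MSTRG.48632 and MSTRG.51165 the root points do.

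Some of the loci were even across tissues. Of 179 intergenic loci with several isoforms at 10 FPKM or more in all 9 libraries, 28 had tissue means within 0.5 of each other on the log2(FPKM + 1) scale. The smallest range, 0.12, was at MSTRG.36924, on the plus strand at 141769 to 147657 with 3 isoforms, with 26.2, 21.9 and 14 FPKM in root, 24.0, 16.3 and 16.6 in flower and 18.1, 18.2 and 20.8 in leaf. All tissues overlapped in level, yet its leading isoform held 69.4%, 72.9% and 69.1% in root and 48.0%, 55.0% and 49.6% in flower, a difference of -19.6 ± 2.77 points (limma adjusted p = 0.00770) that lies just under the 20 points required for a call. MSTRG.48714, on the plus strand at 686 to 1447 with 2 isoforms, had the next smallest range, 0.14, with 36.4, 16.5 and 16.1 FPKM in root, 20.8, 24.8 and 20.2 in flower and 21.9, 27.5 and 13.1 in leaf.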

How the data were processed

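RNA was measured in 9 libraries, 3 each from root, flower and leaf. Per the submitters' processing notes, HISAT2, StringTie and Cuffnorm were used; no version, setting or build is given in the sources used here. As deposited by the authors, the data are 1 table of FPKM per assembled transcript, and per the file headers it also gives locus, strand, start, end and class code. FPKM divides fragments by transcript length and library size, so isoform values are estimates that split shared reads, and low or 0 values can be estimation results. Of the 9 columns, 8 carry a sample title; the last was used as a leaf library without a number, and 0 columns of per-sample values were left unused.

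FPKM were summed per locus. Loci with at least 1 FPKM in at least 3 libraries were fitted with limma 3.58.1 in R 4.3.3 on log2(FPKM + 1), with a variance trend, 1 mean per tissue, all 9 libraries and 6 residual degrees of freedom, and p-values were adjusted over all 36342 tested loci. Leading isoform shares were fitted without a trend. Single values per library had exact permutation tests. The fits were tested on simulated data. Fragments per FPKM were read from the steps of low values at loci with 1 transcript and no strand: 100% were whole within 0.05 after a length correction of 195 to 211 nt. Fragment numbers of loci with several isoforms were not recovered, so no count test was run.

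Named loci are, per comparison, the 2 largest called and non-overlapping differences in each direction, the 3 of highest mean in each tissue, the 3 with most isoforms, the 2 longest, the 2 largest called share differences in each direction, the 2 most abundant switches per pair, and the 2 steadiest; loci named in the runs at 0 were chosen after their values were seen. The loci and lists were chosen with earlier results of these data known. No genome was used, so no sequence is shown.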

Additional observations from a re-analysis of the deposited data

How the results depend on the processing

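Counts are intergenic loci with several isoforms. Comparisons are in the order root against leaf, flower against leaf, flower against root, and the cause of each shift was not tested. Calls over all loci shifted as well, for example to 7429, 8204 and 9907 with a pseudocount of 5. Of 174 counts and values under alternatives other than leaving out a library, 141 stayed within 1.5 times the reported count (for shares of FPKM, kept their direction), as did 149 of 171 with a library left out. With a pseudocount of 5, called loci numbered 598, 495 and 739, with 225 lower in root than in leaf, 291 higher and 204 lower in flower than in leaf, 317 higher and 422 lower in flower than in root, and 122 leaf-enriched. A filter of 5 FPKM, which left 1636 loci, gave 260 lower in root than in leaf, 622 called and 295 lower in flower against leaf, 360 higher in flower than in root, and 114 leaf-enriched. Equal sums gave 891 lower in flower than in leaf and 401 leaf-enriched. Array weights gave 1558 called and 798 lower for root against leaf, and 111 share calls. The whole table moved under these settings too. Array weights called 17649 of its 36342 tested loci for root against leaf, where the main fit called 12828. Equal sums called 14916 of 36786 loci for flower against leaf, where the main fit called 13676. The filter of 5 FPKM left 20545 loci of the table, with 8872, 9659 and 11280 called. Share calls were 21, 6 and 39 with 5 FPKM in all libraries (399 loci), 224, 122 and 340 with diffSplice, which has no size requirement, and 131 and 20 for the first pair of comparisons without leaf 41 and flower 2, an alternative added after seeing the data, as was setting runs at 0 as missing. Switches were 18, 7 and 21 with 5 FPKM, which leaves fewer loci to consider, and 15, 5 and 12 with a margin of 1.5 times.

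Leaving out 1 library at a time gave 31 to 88, 8 to 13 and 57 to 114 share calls, and 70 to 151, 32 to 54 and 67 to 151 switches. A switch then needs fewer libraries, but the counts also depended on the library left out. Level calls ranged from 824 to 1252, 857 to 1057 and 1120 to 1396, and the share of all FPKM differed by 1.67 to 2.18, 0.899 to 1.26 and -1.08 to -0.562 points. For named loci, 382 of 397 values kept their direction and call, 15 lost the call and 0 reversed. No paired analysis was possible because no 2 tissues have at least 2 column numbers in common: flower and leaf share the number 1, root and leaf share the number 23, which matches no leaf title, and root and flower share none. Depth limits statements on levels under 0.116 to 0.215 FPKM, where 3 fragments lie at 1000 nt.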
